A study of Mus musculus with 2 samples.

Results

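The Bcl2 family decides whether mitochondria release the proteins that start apoptosis, and 10 of its genes are described here in mouse embryonic fibroblasts (MEF) with and without THOC5. They are the pro-survival genes Mcl1, Bcl2 and Bcl2l1 (Bcl-xL), the BH3-only genes Bcl2l11 (Bim), Bmf, Bbc3 (Puma), Pmaip1 (Noxa) and Bid, and the effectors Bax and Bak1. Members were all non-control probes whose gene name on the array was one of these, which gave 10 of 28233 named genes and 12 of 35777 named probes. Mcl1 and Bcl2l1 had 2 probes each, and the other 8 genes had 1.

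THOC5 is a member of the THO complex, which acts in the processing and export of mRNA, and the study asked which transcripts of the early serum response need it. RNA from 4 states of 1 immortalized MEF line was measured on 2 dual-color arrays of 60-base probes, 1 per condition (control and THOC5-depleted). On each array the unstimulated cells carried Cy3 (the green dye) and cells after 1 h of fetal calf serum (FCS) carried Cy5 (the red dye), and dyes were exchanged on neither array. Both arrays came from Rosa26ERT2 Cre cells that are flox/flox for THOC5, on the mixed background C57BL/6 x B6:129 Ola. Control cells, labelled wildtype, had no tamoxifen, whereas THOC5-depleted cells, labelled knockdown, had 2 d of it, so tamoxifen, active Cre and THOC5 loss cannot be told apart. The Cre recombinase is expressed from the ubiquitous Rosa26 locus and is switched on by tamoxifen, and all cells were starved of serum before RNA was taken or serum was added.

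In healthy cells the pro-survival proteins hold Bax and Bak1 in check by binding them and the BH3-only proteins. BH3-only proteins are sensors of stress and of lost growth factors that block the pro-survival proteins or activate Bax and Bak1, which then open the outer mitochondrial membrane. In fibroblasts, Bim and Bmf are known as genes that respond to loss of growth factors, partly through FoxO transcription factors, and Mcl1 is known as a short-lived protein whose gene responds quickly to serum.

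Upstream sequences are shown for Bcl2l11, Bmf and Mcl1, 3 of the members called after serum in control cells, so that Bcl2l11 and Mcl1, which were higher after serum there, can be set beside Bmf, which was lower. Each is the 250 bases before a RefSeq transcript start on GRCm38.p6, written 5′ to 3′ on the gene's strand. For Bcl2l11 this is chr2:128125788-128126037 (plus strand), for Mcl1 chr3:95658471-95658720 (plus strand) and for the most upstream start of Bmf chr2:118549687-118549936 (minus strand). The stretch for Bbc3 is 30 bases at chr7:16310083-16310112 (plus strand), shown because it holds the same motif as that of Bcl2l11. Capitals mark a match to the FoxO core GTAAACA on either strand.
Bcl2l11: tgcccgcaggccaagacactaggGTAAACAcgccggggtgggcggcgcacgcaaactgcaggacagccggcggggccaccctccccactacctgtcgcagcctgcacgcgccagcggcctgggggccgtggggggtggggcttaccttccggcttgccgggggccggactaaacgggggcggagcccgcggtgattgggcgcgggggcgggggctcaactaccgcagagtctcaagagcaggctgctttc
Mcl1: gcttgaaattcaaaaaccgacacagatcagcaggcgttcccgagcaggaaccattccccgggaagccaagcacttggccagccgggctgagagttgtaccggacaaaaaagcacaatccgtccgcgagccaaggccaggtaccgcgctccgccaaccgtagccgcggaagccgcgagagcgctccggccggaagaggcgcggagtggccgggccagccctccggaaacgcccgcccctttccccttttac
Bmf: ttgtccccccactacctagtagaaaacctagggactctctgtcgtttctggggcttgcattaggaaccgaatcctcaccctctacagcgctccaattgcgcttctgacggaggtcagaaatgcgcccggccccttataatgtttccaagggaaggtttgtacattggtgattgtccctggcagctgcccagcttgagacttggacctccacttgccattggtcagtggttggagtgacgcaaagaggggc
Bbc3: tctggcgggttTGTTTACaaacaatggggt
The match lies 227 bases before a start of Bcl2l11 and 167 bases before a start of Bbc3. Both genes have other RefSeq starts, and the bases before those held no match. RefSeq windows of 300 bases (250 before and 50 after a start) were found for 9 of the 10 members, with 16 windows in all, and 2 of them held the FoxO core. Over all 32851 promoter windows, 1199 (3.65%) held it. The cyclic AMP response element TGACGTCA, present in 1.79% of all windows, and the CArG box, which serum response factor binds and which was present in 1.63%, had 0 matches in the members' windows. GC content upstream was 72% in Bcl2l11, 64.4% in Mcl1 and 54% in Bmf, and CpG steps numbered 24, 26 and 8. Matches are letters in a window and say nothing about binding in these cells.

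The array quality and labels were checked first. Each array held 43020 spots, of which 62.1% to 64.4% in a channel were well above background, and 0 were saturated. Thoc5 gave 4808 in unstimulated and 3047 in stimulated control cells, against 546 and 455 in THOC5-depleted cells, which after scaling between arrays was 7.09-fold and 5.38-fold lower. Fos, an immediate early gene, was 52.2-fold higher after serum in control cells and 93.4-fold higher after depletion. Of 12 fibroblast markers, 11 were above background in all 4 channels, and their summed signal ranged from 335853 to 388849 in control and from 284506 to 315803 in THOC5-depleted cells. After scaling, 4 of them were lower in unstimulated THOC5-depleted cells by 1.5-fold or more (Col3a1, Pdgfra, Dcn and Lum) and 3 in stimulated ones. The 4 epithelial markers summed to between 85.6 and 122 and the 4 endothelial ones to between 84.8 and 124, with Cdh1, Tek and Emcn not above background in any channel. After depletion, Epcam and Cdh5 were called lower in both states. Of 4 leukocyte markers 3 were tested, of which 2, Ptprc and Cd68, were called higher and the other was not called. Cd68 went from 11.6 and 11.8 in control cells to 24.6 and 26.0. Ptprc and Cd68 were not above background in control cells, nor Epcam and Lum in THOC5-depleted cells. These genes therefore passed the filter only through the array where they were higher. Whether these marker differences played a part in the values of the Bcl2 family was not tested. In RNA of whole cultures, a lower signal from fewer expressing cells and from less RNA per cell cannot be told apart.

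With 1 array per condition values could not be checked against replicates, and conditions were not tested against each other. A gene is called here when it differs by 1.5-fold or more, which is 0.585 on the log2 scale, and the share of all genes called the same way is the background. Each value below is the processed signal of a probe, an intensity in arbitrary units, and the serum ratio is the signal after serum over the signal before it on the same array. Errors given with log2 ratios are those of the scanner software for a single spot, and cover only the measurement on that array. All 12 member probes were well above background in all 4 channels.

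**Figure D1:**
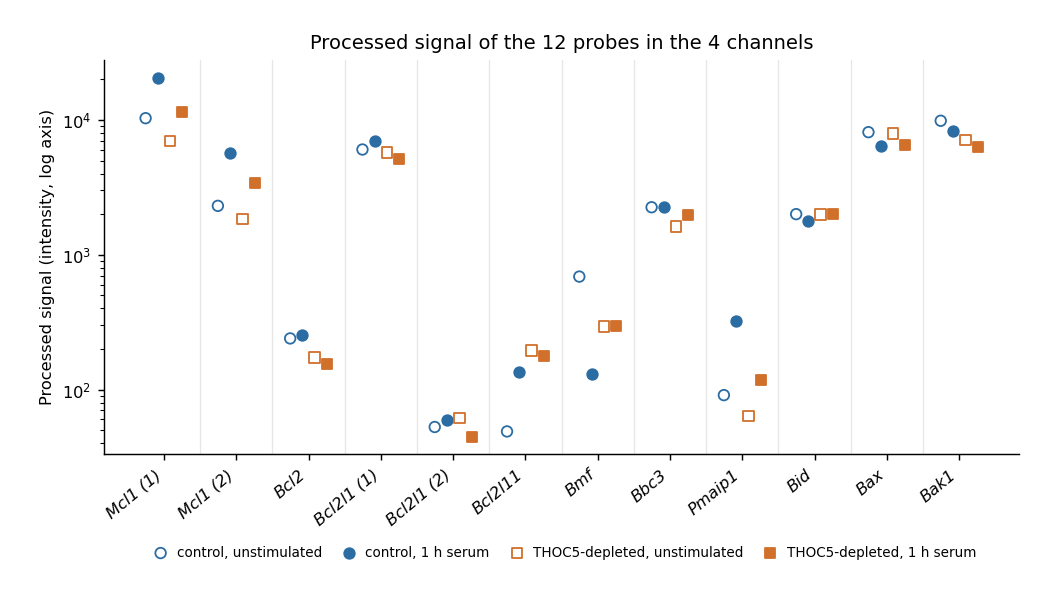
Processed signal (arbitrary units, log axis) of the 12 probes of the 10 Bcl2 family genes in the 4 channels, which are unstimulated and 1 h serum in control and in THOC5-depleted cells, with 1 value per point, no replicates and no scaling between arrays. Bmf stands at 689 before and 130 after serum in control cells and at 294 in both states of THOC5-depleted cells, and Bcl2l11 at 48.9 in unstimulated control cells and at 134 to 194 in the other 3 states.

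In control cells, serum was followed by higher signals of Mcl1 and of the BH3-only genes Bcl2l11 and Pmaip1, and by a much lower signal of Bmf. Thus 3 of the 10 members were called higher, where the background was 6.25% of 17746 genes, and 1 was called lower, where it was 5.42%. The other 6, among them both effectors, lay between -0.33 and 0.22 on the log2 scale. The median of the 10 log2 ratios was 0.04, beside -0.02 over all genes. In THOC5-depleted cells Mcl1 and Pmaip1 were called higher, 2 of 10 against a background of 3.03% of 17815 genes, and 0 of 10 were called lower against 1.25%. The median of the members was there -0.07 and that of all genes -0.01.

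**Figure D2:**
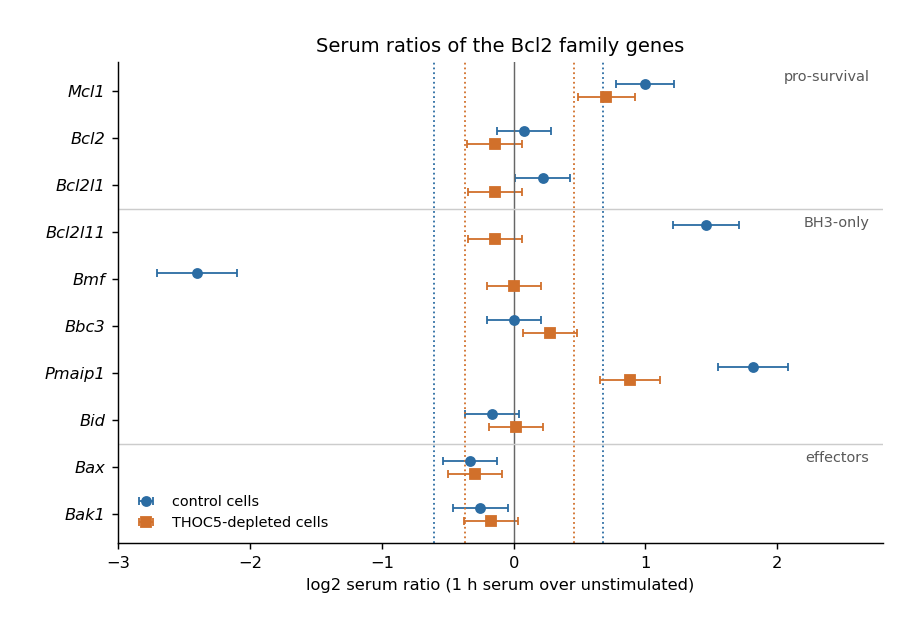
Log2 serum ratio (1 h serum over unstimulated) of the 10 members on the control and the THOC5-depleted array, with 1 point per array, bars for the scanner software's error of a single spot, and dotted lines at the 5th and 95th percentiles of all genes on each array. Bmf lies at -2.40 on the control array and at 0.00 on the other, Bcl2l11 at 1.46 and -0.14, and Mcl1 and Pmaip1 are above 0.70 on both.

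Mcl1 encodes a pro-survival protein that binds Bim, Noxa and Bak1. Its brighter probe (chr3:95466855-95466914 on mm9, plus strand) gave 10308 before and 20568 after serum in control cells, and 6993 before and 11387 after serum in THOC5-depleted cells. The signal was thus higher after serum on both arrays. The serum ratio was 2.00 in control cells (log2 1.00, error 0.22), compared with 1.63 after depletion (log2 0.70, error 0.21). The other probe (chr3:95465543-95465602) gave 2306 and 5663 in control cells, against 1845 and 3387 in THOC5-depleted cells, which are ratios of 2.46 and 1.84. Both probes therefore moved the same way on both arrays, and Mcl1 ranked 422 from the highest of 17746 genes in control cells and 337 from the highest of 17815 after depletion. The ratio of the brighter probe was 1.23-fold lower after depletion (log2 -0.29, error 0.31) and that of the other 1.34-fold lower, neither of which was called. After scaling between arrays, the brighter probe was 1.18-fold lower in unstimulated and 1.45-fold lower in stimulated THOC5-depleted cells, while the other was 1.00-fold in unstimulated and 1.34-fold lower in stimulated ones, none of which was called. The call of Mcl1 in THOC5-depleted cells was lost (log2 0.46) when the mean shift of the spike-in probes between the arrays was removed, an alternative chosen after seeing the data.

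Bcl2, the founding pro-survival gene of the family, was measured at chr1:108608970-108609029 (minus strand). It gave 240 and 252 in control cells before and after serum, and 172 and 156 in THOC5-depleted cells. The ratios of 1.05 and 0.904 lay close to 1. After scaling between arrays, Bcl2 differed by -0.26 in unstimulated and -0.48 in stimulated THOC5-depleted cells on the log2 scale, and neither was called. Bcl2l1, which encodes the pro-survival Bcl-xL and the pro-apoptotic short form Bcl-xS from one gene, gave 6036 and 7025 in control cells, against 5712 and 5173 in THOC5-depleted cells at its brighter probe (chr2:152606404-152606463, minus strand). Its ratio was thus 1.16 in control cells and 0.906 after depletion. The dim probe (chr2:152655185-152655244) gave 52.8 and 59.0 in control cells, against 61.5 and 44.8 in THOC5-depleted cells, with ratios of 1.12 and 0.729. The dim probe's ratio was 1.53-fold lower after depletion (log2 -0.62, error 0.34) and that of the brighter probe 1.28-fold lower (log2 -0.36, error 0.29), so the probes shared a direction but only the dim one passed the threshold.

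Bcl2l11 encodes Bim, a BH3-only protein that binds all pro-survival members and is made when growth factors are lost. Its probe is placed by the array's design at chr2:127972893-127983988 (mm9, plus strand), a stretch of 11096 bases that is longer than the 60-base probe, and which of the gene's transcripts it reads was not determined here. The signal was 48.9 in unstimulated and 134 in stimulated control cells, against 194 and 176 in THOC5-depleted cells. Unstimulated control cells were thus the low state, and the other 3 lay above it. The serum ratio was 2.75 in control cells (log2 1.46, error 0.25), compared with 0.907 after depletion (log2 -0.14, error 0.21). Between the arrays the ratio was 3.03-fold lower after depletion, a log2 difference of -1.60 with an error of 0.33. After scaling between arrays, Bcl2l11 was 4.56-fold higher in unstimulated and 1.51-fold higher in stimulated THOC5-depleted cells than in the matching control cells. The first was smaller, at a log2 of 1.55, with normexp background correction, an offset of 50 and loess together. The second just passed the threshold and was no longer called in that setting (log2 0.47) or without scaling (log2 0.39).

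Bmf encodes a BH3-only protein that is held at the actin cytoskeleton and freed when cells lose attachment. Its probe (chr2:118354496-118354555 on mm9, minus strand) gave 689 in unstimulated and 130 in stimulated control cells, and 294 in both states of THOC5-depleted cells. In control cells the signal was 5.28-fold lower after serum (log2 -2.40, error 0.30), rank 7 from the lowest of 17746 genes. The serum ratio of THOC5-depleted cells was 0.999 (log2 0.00, error 0.21). The 2 signals of THOC5-depleted cells lay between those of control cells, so the gene was lower before serum and higher after it than in control cells. After scaling, Bmf was 1.96-fold lower in unstimulated and 2.70-fold higher in stimulated THOC5-depleted cells. The difference of log2 ratios, 2.40 with an error of 0.37, was the highest among the 17199 genes above background in all 4 channels.

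**Figure D3:**
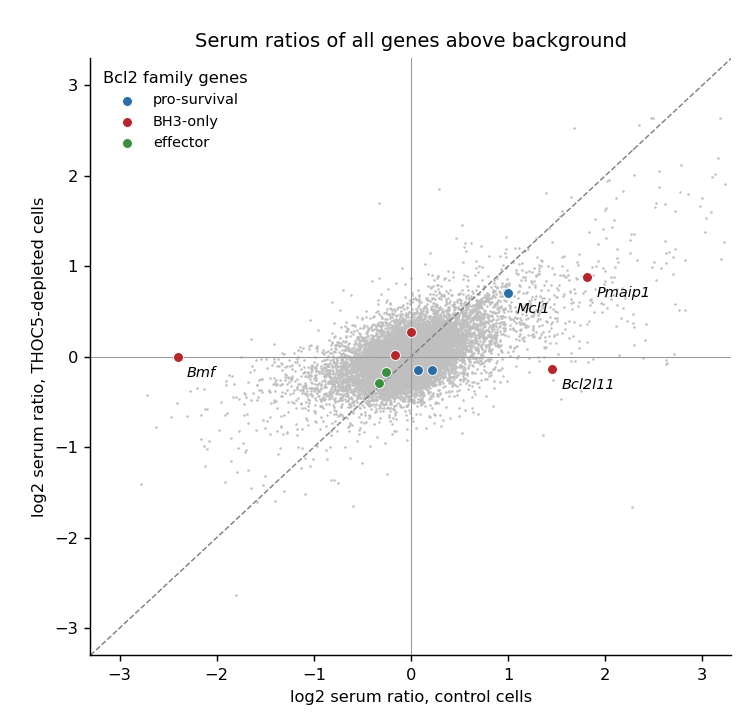
Log2 serum ratio in control cells (horizontal axis) and in THOC5-depleted cells (vertical axis) of the 17199 genes above background in all 4 channels, with the 10 members coloured by role, 4 of them named, a dashed line of equal ratios and 29 genes beyond the axis limit of 3.3 not drawn. Bmf stands far to the left at the height of 0 and Bcl2l11 to the right just below 0, whereas Mcl1 and Pmaip1 lie to the upper right.

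Bbc3 encodes Puma, a BH3-only protein and a known target of p53. Its probe (chr7:16903403-16903462, plus strand) gave 2252 and 2256 in control cells, against 1628 and 1971 in THOC5-depleted cells. The ratio was 1.00 on the control array and 1.21 on the other, and neither was called. Pmaip1 encodes Noxa, a small BH3-only protein that binds chiefly Mcl1, and is also known as a p53 target. At chr18:66625088-66625147 (plus strand) its signal was 91.0 before and 320 after serum in control cells, and 63.6 before and 117 after serum in THOC5-depleted cells. It was higher after serum on both arrays, by 3.52-fold in control cells (log2 1.81, error 0.27) and 1.84-fold in THOC5-depleted cells (log2 0.88, error 0.23), at ranks 145 and 215 from the highest. The ratio was 1.91-fold lower after depletion (log2 -0.93, error 0.35), and that call was lost when the log ratios of the arrays were set to equal spread (log2 -0.56). After scaling, Pmaip1 was 2.36-fold lower in stimulated THOC5-depleted cells, while in unstimulated ones the difference of -0.31 was not called.

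Bid, a BH3-only protein that caspase-8 cuts to its active form, gave 2001 and 1787 in control cells, against 1984 and 2005 in THOC5-depleted cells (chr6:120843464-120843523, minus strand). Its ratios were 0.893 and 1.01. After scaling between arrays it was 1.23-fold higher in unstimulated and 1.39-fold higher in stimulated THOC5-depleted cells, neither of which was called. The effector Bax, which moves to mitochondria and forms pores there, gave 8117 and 6456 in control cells, against 7963 and 6509 in THOC5-depleted cells (chr7:52717122-52717181, minus strand). The effector Bak1, which sits in the mitochondrial membrane, gave 9863 and 8283 in control cells, against 7123 and 6323 in THOC5-depleted cells (chr17:27156807-27156866, minus strand). Both effectors had a ratio below 1 on both arrays, 0.795 and 0.817 for Bax and 0.840 and 0.888 for Bak1, and neither was called in any comparison. The difference of their ratios between the arrays was 0.04 and 0.08 on the log2 scale, smaller than the error of 0.29 for each.

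Set over all 10 members, the serum ratio was called higher after depletion for Bmf, where the background was 4.06% of genes, and lower for Bcl2l11 and Pmaip1, where it was 3.77%. All 3 are BH3-only genes. The call of Pmaip1 was lost at equal spread (log2 -0.56), and the pro-survival gene Bcl2l1 passed the threshold at its dim probe (-0.62) and, with the spike-in shift removed, at its brighter probe (-0.61). The members' median difference was -0.09 beside 0.01 over all genes. In unstimulated cells 1 member was called higher (Bcl2l11, background 6.96% of 19043 genes) and 1 lower (Bmf, background 7.51%) after depletion, and the median was -0.15 beside 0.00. In stimulated cells 2 were called higher (Bcl2l11 and Bmf, background 8.44% of 18664 genes) and 1 lower (Pmaip1, background 7.21%), with medians of 0.02 and 0.00. These 3 sets of values share channels, and for each gene the stimulated minus the unstimulated difference equals the difference of ratios by construction. The called members have at least 1 signal of 200 or less, and when every signal had to exceed 200 the counts of called members were 0 in all 3 comparisons, because Bcl2l11, Bmf, Pmaip1 and Bcl2 then left the set.

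**Figure D4:**
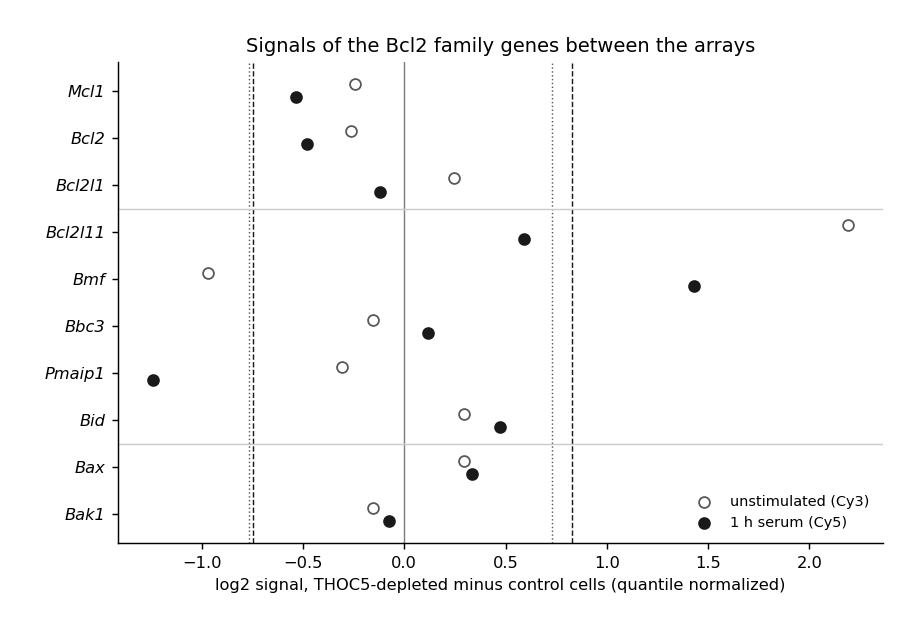
Log2 difference of THOC5-depleted over control cells after scaling between arrays, for each member in unstimulated and in stimulated cells, with 1 value per point and no replicates, and with lines at the 5th and 95th percentiles of all genes (dotted for unstimulated, dashed for stimulated cells). Bcl2l11 is at 2.19 and 0.59, Bmf at -0.97 and 1.43 and Pmaip1 at -0.31 and -1.24, and the other 7 genes lie between -0.54 and 0.47.

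Single spots set the precision within an array. Probes printed as 10 spots had a median SD of 0.126 (control) and 0.133 (THOC5-depleted) on the log2 scale when the lower signal was below 100, and of 0.021 and 0.020 when it was 1000 or more. Bcl2l11, Pmaip1 and the dim Bcl2l1 probe were in the first class on at least 1 array, and Mcl1, Bcl2l1, Bbc3, Bid, Bax and Bak1 in the last on both. The serum differences of Bmf, Bcl2l11, Pmaip1 and Mcl1 in control cells exceeded both this SD and the software's error. Neither measure holds the spread between cultures.

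Beyond the 10 members, a list of 40 related genes was read, of which 38 were on the array and 32 were above background in all 4 channels. In control cells 2 of the 32 were called higher after serum (background 6.25%) and 1 lower (5.42%), and in THOC5-depleted cells 0 in either direction (3.03% and 1.25%). The difference of ratios was called higher for 1 (4.06%) and lower for 1 (3.77%). In unstimulated cells 1 was called higher (6.96%) and 1 lower (7.51%) after depletion, and in stimulated cells 2 (8.44%) and 2 (7.21%). These counts are near or below what those shares give of 32 genes. The medians over the list lay between -0.10 and 0.01 in the 5 comparisons.

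Foxo1, a FoxO transcription factor that acts when growth factor signals are low, gave 896 and 1433 in control cells, against 658 and 599 in THOC5-depleted cells. Its serum ratio was 1.60 in control cells, compared with 0.910 after depletion, a difference of -0.81 on the log2 scale, and it was 1.96-fold lower in stimulated THOC5-depleted cells. Foxo3 and Foxo4 were not above background in any channel. Other regulators, such as Trp53 (p53, log2 ratios -0.29 and -0.11) and Ddit3 (a stress-induced transcription factor, 0.45 and 0.34), were not called in any comparison.

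Casp2, an initiator caspase, was the only 1 of 13 apoptosome and caspase genes called. It gave 6098 before and 2692 after serum in control cells, and 5117 and 3684 in THOC5-depleted cells. The signal after serum was 2.27-fold lower in control cells, against 1.39-fold after depletion, and stimulated THOC5-depleted cells were 1.74-fold above stimulated control cells. Casp9, the caspase of the apoptosome, lay just below the threshold in control cells at -0.58 and was at -0.22 after depletion. Apaf1, the apoptosome scaffold, was at -0.22 and 0.13.

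Among family members of less settled function, Bcl2l15 gave 35.9 and 63.0 in control cells, against 66.9 and 78.6 in THOC5-depleted cells. It was 1.76-fold higher after serum in control cells and 2.08-fold higher in unstimulated THOC5-depleted than in unstimulated control cells. Its signals all lay below 100, where single spots were least precise, and both folds rest on the signal of 35.9. Bcl2l13, which resides in mitochondria, had ratios near 1 on both arrays (log2 -0.02 and -0.02) and was lower after depletion by 1.73-fold in unstimulated and 1.72-fold in stimulated cells. Bnip3, a mitochondrial protein of mitophagy that responds to low oxygen, was 1.58-fold higher in stimulated THOC5-depleted cells. The other pro-survival gene measured, Bcl2l2 (Bcl-w), the BH3-only genes Bad and Bik and the effector Bok were not called in any comparison, with log2 serum ratios between -0.27 and 0.21. Bcl2a1d, Bcl2l10, Hrk and Bcl2l14 were not above background in any channel.

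**Figure D5:**
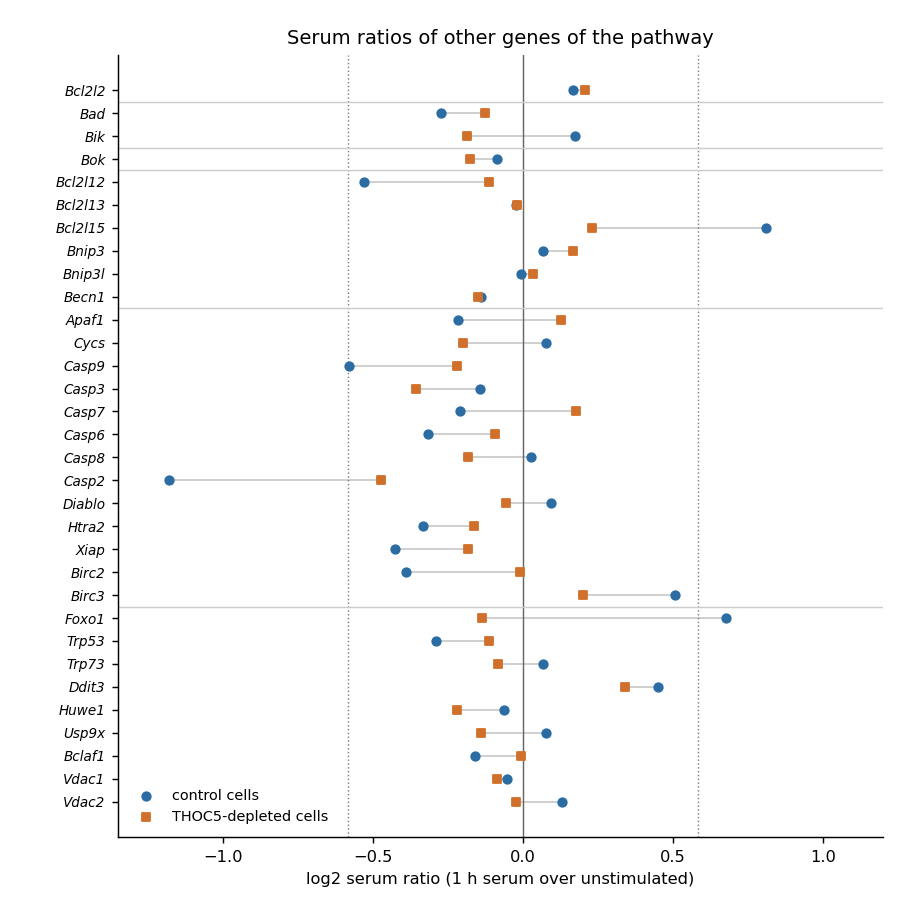
Log2 serum ratio of the 32 related genes above background in all 4 channels, with 1 point for the control array, 1 for the THOC5-depleted array, a line joining them and dotted lines at 1.5-fold. Casp2 lies at -1.18 and -0.47, Foxo1 at 0.68 and -0.14 and Bcl2l15 at 0.81 and 0.23, and the points of the other genes lie inside the dotted lines.

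Genes with a pattern most like that of Mcl1 and Bmf were found by the Euclidean distance over the 2 log2 serum ratios among 17199 genes. For Mcl1 they were Celsr3 (0.98 and 0.72 in control and THOC5-depleted cells), BC031781 (0.99 and 0.68) and Slc2a1, a glucose transporter (1.00 and 0.74), at distances of 0.021 to 0.034. For Bmf they were Zfp467 (-2.27 and -0.38), Mx2 (-2.20 and -0.35) and Zfp3 (-2.13 and -0.35), at distances of 0.397 to 0.443. Mcl1 thus had close neighbours and Bmf had none within 0.39, a description over 2 values per gene.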

How the data were processed

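RNA of 4 cell states was measured on 2 dual-color Agilent arrays. The authors deposited the output of Agilent Feature Extraction 10.7.3.1 and placed the probes on mm9. The deposited processed signals are, per the file headers, intensities from which the background had been subtracted, with linear and LOWESS dye normalization within the array, not scaled between arrays. The deposited log ratio is the log10 of Cy5 over Cy3, and its software error was converted to log2. The authors' series table of values has no stated scale and was recorded as a score. Where both signals exceeded 200 (16671 and 16245 features), 100% of its values equalled the size of the scanner's log10 ratio within 0.001. It held 0 negative values over 44397 features, so it took its sign from the scanner ratio and is no independent alternative.

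Spots marked as outliers were left out (239 and 234), spots of a probe were averaged on the log2 scale, and the probe with the highest mean signal stood for a gene. Ratios required both signals well above background (all 4 channels for differences of ratios). Signals were compared between arrays after Aquantile normalization (limma 3.58.1, R 4.3.3), for genes well above background on at least 1 array. Probes were matched to members by name, and 12 of 12 accessions carried the same symbol in RefSeq. Errors of differences are the root of the summed squared errors. The 10 members, the pathway and marker lists and the threshold were chosen with earlier results of these data known. Named genes are all members, the list genes called in any comparison or defining a list, Thoc5, Fos, and the 3 genes nearest to Mcl1 and to Bmf.

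Alternatives were normexp with an offset of 50 together with loess, no dye normalization, centring, equal spread, a floor of 50, the series table, the mean over probes, outlier spots kept, every signal above 200, thresholds of 1.3-fold and 2-fold, and scaling by the 75th percentile or none. Removal of the mean spike-in shift was chosen after seeing the data. On simulated data, 100% of 200 probes changed 4-fold were recovered, with 2 false calls among 25192 probes. This checks the code only. The noise was fixed beforehand, without spread between cultures, and no change near the 1.5-fold threshold was simulated. Other steps ran in Python 3.11.15 (pandas 2.3.3, numpy 2.4.6, matplotlib 3.10.9, scipy 1.17.1). No exon or UTR position of the probes is given, because no mm9 annotation was used here. One marker gene is not reported here.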

Additional observations from a re-analysis of the deposited data

Results flagged for a closer look

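The log2 serum ratio of Bcl2l11 (Bim) had opposite signs on the arrays. The ratio of stimulated over unstimulated signal was 2.75 in control cells, compared with 0.907 after depletion, and the difference of the log2 ratios was -1.60. There was 1 array per condition, so this difference was not tested, and the value in THOC5-depleted cells (log2 -0.14) was not called and was smaller than the software's error of 0.21, so no decrease is shown there.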

How the results depend on the processing

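Over the alternatives other than the thresholds, the member calls that changed were those of Mcl1 in THOC5-depleted cells (log2 0.46 after the mean spike-in shift of 0.247 was removed, which left 1 called member of 2), of Bcl2l1 for the difference of ratios (-0.61 in that setting), of Pmaip1 for the difference (-0.56 at equal spread), of Bcl2l11 in stimulated cells (0.47 with normexp, offset and loess together, 0.39 without scaling), and of Bcl2 and Mcl1 in stimulated cells (-0.70 and -0.85 without scaling). When every signal had to exceed 200, fewer members were tested, and the called members were 1 in control cells (of 4, with 553 genes higher and 405 lower of 11222), 1 in THOC5-depleted cells (of 2, with 217 and 22) and 0 for the difference of ratios (of 3, with 256 and 292), for unstimulated cells (of 2, with 301 and 292) and for stimulated cells (of 3, with 354 and 348). At 2-fold they were 3 in control cells (without Mcl1, whose ratio lay just under 2, where 420 genes were called higher and 270 lower of 17746), 0 in THOC5-depleted cells (where 200 of 17815 genes were called), 2 for the difference (without Pmaip1, where 139 and 200 genes were called of 17199), 1 in unstimulated cells (where 590 genes were called higher and 616 lower of 19043) and 2 in stimulated cells (without Bcl2l11, where 669 and 576 were called of 18664). At 1.3-fold they were 6 in stimulated cells, where 5185 of 18664 genes were called. The Bmf difference ranged from 2.10 to 2.45 and that of Bcl2l11 from -1.84 to -1.08. Over all genes, called genes numbered 2070 in control cells (690 to 4177 over the alternatives), 761 in THOC5-depleted cells (200 to 2081), 1346 for the difference (339 to 3190), 2757 in unstimulated cells (593 to 4872) and 2920 in stimulated cells (702 to 5185). Among called genes only, the share that was higher rather than lower was 70.8% in THOC5-depleted cells. It was 84.5% with normexp, offset and loess together, 90.8% above a signal of 200 and 18.2% without the spike-in shift. For the difference, this share of the called genes was 51.9%, against 13.2% without that shift. For unstimulated and stimulated cells it was 48.1% and 53.9%, against 22.7% and 26.8% without scaling, where the median over all genes moved to -0.26 and -0.25, and 58.6% in unstimulated cells with the 75th percentile. No paired analysis was possible because each condition had 1 array. Dim signals limit Bcl2l11, Pmaip1, the dim Bcl2l1 probe and, beyond the members, Bcl2l15.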
